A study of Homo sapiens with 2 samples.

Results

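The 47 genes described here encode the core of NF-kB and TNF receptor signalling. They were chosen by name, out of 19970 protein-coding genes on chromosomes 1 to 22 and X, and not by a rule on peaks. Earlier results of these data were known when they were chosen. Of the 47 genes, 5 encode NF-kB subunits and 5 proteins of the IkB family, grouped here as inhibitors although BCL3 is an activating partner. A further 11 encode kinases, with the scaffold IKBKG counted among them. The others encode 2 TNF receptors, 12 adaptors, 10 ubiquitin enzymes with their partners, and 2 TNF-induced proteins. The data came from MDA-MB-231 cells, a human line of triple-negative breast carcinoma, in which KDM1B, a histone lysine demethylase, was stably expressed from the retroviral vector pOZ with a tag of 3 FLAG copies. Chromatin precipitated with the anti-FLAG M2 antibody gave 1 ChIP library, and chromatin of the same tagged cells gave 1 input library. Both libraries therefore carry the tagged protein, the tag is on a protein made from the vector, and no library of untagged cells was analysed here. The files held no expression values, so the cell type could not be checked against its markers.

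NF-kB is a family of dimeric transcription factors that the IkB proteins hold inactive in the cytoplasm. Ligand binding to a TNF receptor assembles TRADD, TRAF2, RIPK1 and the BIRC ubiquitin ligases at the membrane, where chains of ubiquitin recruit the TAK1 kinase (MAP3K7 with its TAB partners) and the IkB kinase complex (CHUK, IKBKB and IKBKG). Phosphorylated IkB is degraded and NF-kB enters the nucleus, where it also switches on its own inhibitors such as NFKBIA and TNFAIP3. Toll-like and interleukin-1 receptors reach the same kinases through MYD88, the IRAK kinases and TRAF6. Many triple-negative tumour lines are known for constitutive NF-kB activity.

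The deposited list held 78536 KDM1B peaks, each with a position on hg38 and the authors' log2 ratio of ChIP over input. Their median log2 ratio was 2.99 and the quartiles were 2.58 and 3.52. A peak was counted for a gene when its midpoint lay in the gene span or within 5 kb of it. The share of the span under peaks, called cover here, was taken from the full width of the peaks. Gene spans were those of RefSeq on GRCh38.p14, without exons, so whether a peak lay in an exon, an intron or a UTR is not given here. There was 1 library in each group and read counts and depth are unknown, so no value has a replicate error, and no test of ChIP over input or of one gene against another was possible. Shares of all coding genes, counted in the same way, stand beside the counts as a background, and differences from them were not tested.

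KDM1B peaks lay at 44 of the 47 genes, or 93.6% (95% Clopper-Pearson interval 82.5 to 98.7%, for counting error only and with genes taken as independent), against 67.5% of all coding genes. The 47 are a named list, chosen with earlier results of these data known, and not a random sample of genes. This interval is therefore not a test against the background. These 44 genes held 293 peaks, none counted for a pair of them, of which 238 had their midpoint inside the gene span and 55 in the flanks. The midpoint of 25 of them, 22 in the flanks, also lay inside another coding gene, and such a peak cannot be assigned to one of the genes. The median cover of the 47 spans was 16.3%, with quartiles of 4.34 and 34.6%, against a median of 1.52% over all coding genes. At 7 of the 47 genes peaks covered 50% or more of the span, a share of 14.9% against 7.28% of all coding genes. This difference did not hold for stronger or wider peaks: it was 1 of the 47 against 2.36% of coding genes with only peaks at or above the median ratio, and 2 of the 47 against 4.51% with only peaks of 1 kb or wider. At 11 of the 47 genes 10 or more peaks were counted, and at 12.5% of all coding genes. This count depends on gene length. It was 0 of 10 under 10 kb against 9 of 5655 coding genes, and 1 of 13 between 10 and 30 kb against 436 of 5490. Between 30 and 60 kb it was 8 of 17 against 863 of 3454, and from 60 kb upwards 2 of 7 against 1185 of 5371. The spread among the 47 was wide: cover ran from 77.4% at RNF31 to 0 at TRAF1, TAB3 and IRAK4.

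**Figure D1:**
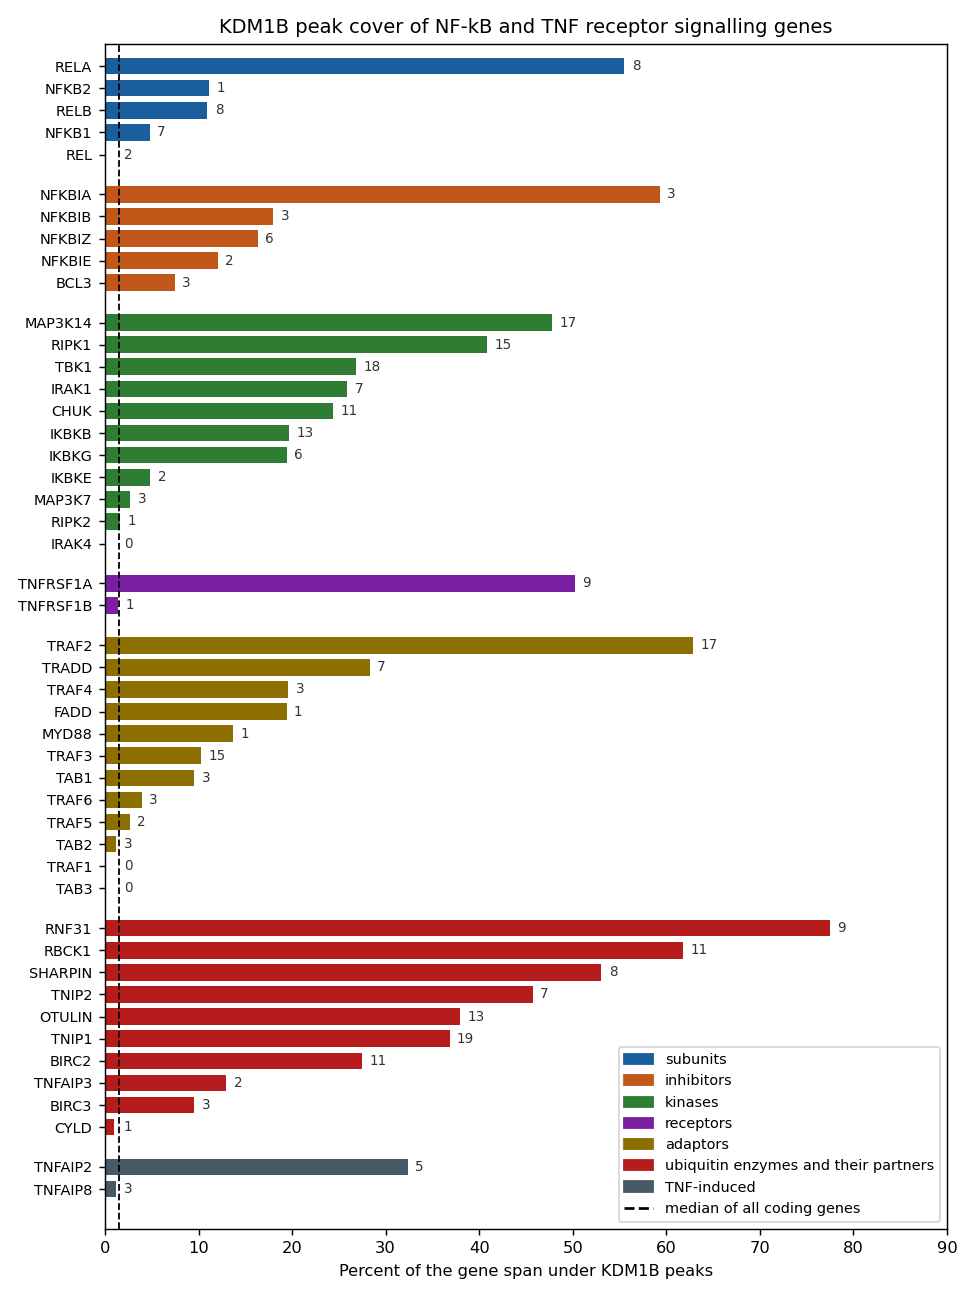
Percent of each gene span under KDM1B peaks (horizontal axis) for the 47 genes, grouped by role and ordered by cover within each role. The number beside each bar is the count of peaks in the gene or within 5 kb, and the dashed line is the median of all coding genes, 1.52%; RNF31 has the longest bar at 77.4% and 3 genes have no peak.

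In each class of gene length, the 47 genes were above the background in the share with a peak and in median cover. Among genes under 10 kb, all 10 of the pathway had a peak, against 50.6% of the 5655 coding genes of that length. Between 10 and 30 kb it was 12 of 13 against 69.4%, and between 30 and 60 kb 16 of 17 against 76.6%. From 60 kb upwards it was 6 of 7 (85.7%) against 77.5%, a share that rests on few genes and lies near the background. The median cover was 19.5% against 0 in the shortest class, 19.4% against 4.62% in the next, 16.3% against 4.03% between 30 and 60 kb, and 2.73% against 0.967% in the longest. Cover of 50% or more was found at 2 of 10 genes under 10 kb, against 8.26% of coding genes. Between 10 and 30 kb it was 4 of 13 against 10.07%. It was 1 of 17 (5.88%) against 9.09% between 30 and 60 kb, and 0 of 7 against 2.23% from 60 kb upwards. The counts in the longer classes are too small to place the pathway below the background there.

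**Figure D2:**
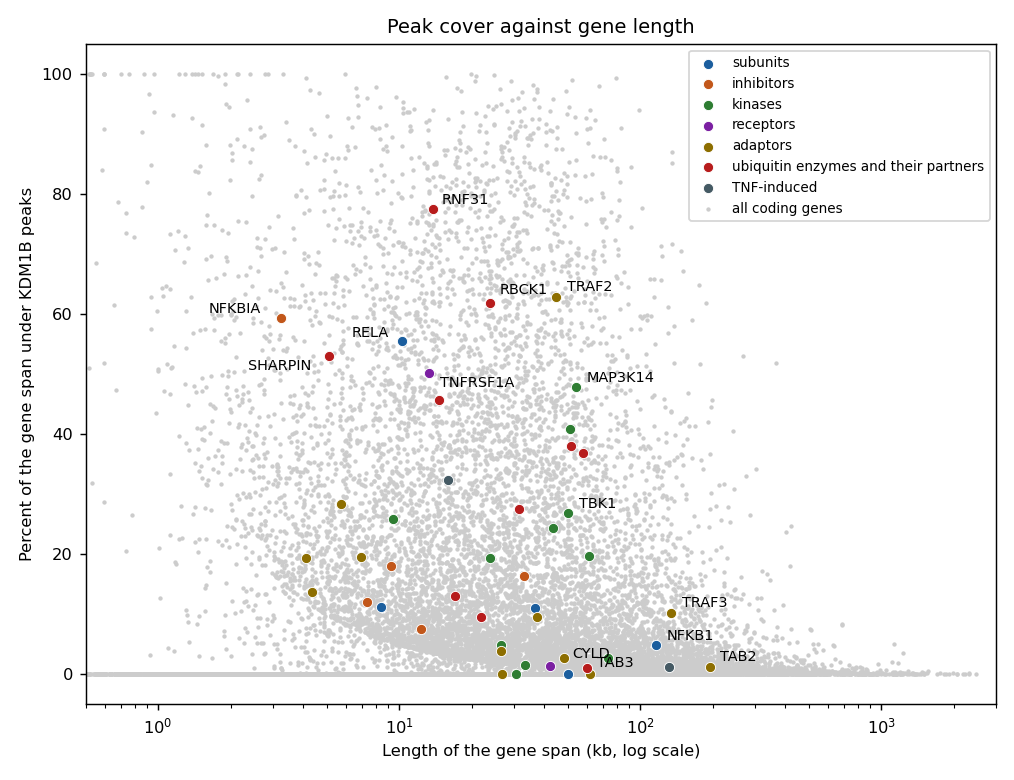
Percent of the gene span under KDM1B peaks against the length of the span in kb (log scale). Coloured points are the 47 genes by role and small grey points are all 19970 coding genes; RNF31, TRAF2 and RBCK1 stand highest among the 47, and the longest, TAB2, has a cover of 1.21%.

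Start sites often carried a peak. RefSeq start sites were listed for 41 of the 47 genes, and 32 of these 41 (78.0%) had a peak midpoint within 1 kb of one, against 39.8% of the coding genes with a listed start. With only peaks at or above the median ratio, 7 of the 41 had one, against 11.3%. At the opposite, 3′ end of the span 11 of 41 had one (26.8%), against 17.4%. Counted at either end of the span, without regard to strand, 35 of 47 genes (74.5%) had a peak within 1 kb, against 41.9% of coding genes. Peaks at starts had lower ratios than those elsewhere. The 39 peaks of these genes near a listed start had a median log2 ratio of 2.48, and the 184 inside the spans but farther from a start had 2.94. Over all coding genes the medians were 2.61 and 3.00, so the same order held. Along the 34 genes of 10 kb or more with known strand, cut into 5 equal stretches, the stretch at the 5′ end held 22.9% of 201 peaks, the next 11.9%, the middle one 19.4%, and the 2 towards the 3′ end 22.9% each. In all coding genes the stretch at the 5′ end held 19.97%, the next 16.7% and the one at the 3′ end 24.2%.

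NF-kB binds a decameric element, the kappaB motif, found on either strand. The motif was searched in the RefSeq window from 250 bases before to 50 after the most upstream listed start of each gene (GRCh38.p14). It occurred in the windows of 11 of the 41 genes (26.8%), against 12.2% of all 15811 windows. A KDM1B peak lay within 1 kb of the start in all 11, against 19 of the 30 genes without a match. Over all coding genes a peak lay at 39.8% of the windows with a match and at 37.0% of those without. Of the 11 windows with a match, 8 held 29 or more CpG dinucleotides. Over all coding genes a match occurred in 15.2% of such windows and in 7.96% of those with 14 or fewer. Whether matches and start peaks go together at equal CpG content was not tested. The 11 genes were NFKB1, REL, NFKBIA, NFKBIZ, BCL3, IRAK1, TRAF3, BIRC3, CYLD, TNFAIP3 and TNIP1. Shown here are the 250 bases before the start of 4 of them, a pair of subunits, the main inhibitor and a ligase, because a KDM1B peak overlaps each stretch, with the kappaB matches in capitals.
NFKB1 (chr4:102501109-102501358, plus strand): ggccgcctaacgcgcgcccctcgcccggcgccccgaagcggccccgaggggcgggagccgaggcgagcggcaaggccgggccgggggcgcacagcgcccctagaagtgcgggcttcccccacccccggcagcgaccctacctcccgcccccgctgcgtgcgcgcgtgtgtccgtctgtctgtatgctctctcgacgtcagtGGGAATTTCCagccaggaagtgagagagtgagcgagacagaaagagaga
REL (chr2:60881324-60881573, plus strand): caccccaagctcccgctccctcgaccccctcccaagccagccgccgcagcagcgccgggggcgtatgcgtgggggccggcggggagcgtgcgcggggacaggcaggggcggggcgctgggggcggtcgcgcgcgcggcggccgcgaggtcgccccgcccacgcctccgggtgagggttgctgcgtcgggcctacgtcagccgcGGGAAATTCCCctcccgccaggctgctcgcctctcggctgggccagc
NFKBIA (chr14:35404750-35404999, minus strand): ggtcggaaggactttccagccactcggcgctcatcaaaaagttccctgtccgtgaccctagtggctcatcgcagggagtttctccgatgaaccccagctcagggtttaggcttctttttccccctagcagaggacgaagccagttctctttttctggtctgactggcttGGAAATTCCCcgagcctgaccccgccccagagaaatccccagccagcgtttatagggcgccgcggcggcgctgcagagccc
BIRC3 (chr11:102317234-102317483, plus strand): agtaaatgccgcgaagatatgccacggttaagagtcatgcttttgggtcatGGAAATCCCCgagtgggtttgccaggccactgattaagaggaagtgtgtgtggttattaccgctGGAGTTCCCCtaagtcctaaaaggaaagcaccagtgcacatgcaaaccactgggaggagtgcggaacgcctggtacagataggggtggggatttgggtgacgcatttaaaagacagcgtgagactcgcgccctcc
At NFKB1 the match began 49 bases before the start and at NFKBIA 81. REL had overlapping matches on both strands, beginning 47 and 46 bases before the start. BIRC3 had separate ones, at -199 and -135 relative to the start. At TNFAIP3 and TNIP1 the listed start lies inside the annotated gene span, and only the 30 bases around the match are shown. TNFAIP3 carried a close pair, 67 and 55 bases before its start, and the match at TNIP1 began 42 bases before.
TNFAIP3 (chr6:137867187-137867216, plus strand): actttGGAAAGTCCCgtGGAAATCCCCggg
TNIP1 (chr5:151081052-151081081, minus strand): ctccgGGGACTTTCCcaggggtggggcggc
A match to the motif is a description of the letters and does not show that NF-kB was bound there.

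Start-site peaks were also set against the CpG content of the windows. With the windows split into 3 classes by their number of CpG dinucleotides, the most upstream start had a peak within 1 kb in 55.7% of all coding genes with 29 or more CpG, in 45.7% of those with 15 to 28 and in 12.4% of those with 14 or fewer. In the pathway the counts were 18 of 23, 8 of 12 and 4 of 6. Genes of the highest class without a start peak were MAP3K14, FADD, TAB2, TAB3 and TRAF1, and genes of the lowest class with one were RELA, IKBKE, TNFRSF1A and RNF31. One of each kind, TRAF1 and TNFRSF1A, was chosen for display after the values were seen, and the 250 bases before their starts are shown with CpG in capitals. TRAF1 had 32 CpG in its window and no peak, while TNFRSF1A had 4 and a peak of log2 ratio 1.99 over its start.
TRAF1 (chr9:120929172-120929421, minus strand): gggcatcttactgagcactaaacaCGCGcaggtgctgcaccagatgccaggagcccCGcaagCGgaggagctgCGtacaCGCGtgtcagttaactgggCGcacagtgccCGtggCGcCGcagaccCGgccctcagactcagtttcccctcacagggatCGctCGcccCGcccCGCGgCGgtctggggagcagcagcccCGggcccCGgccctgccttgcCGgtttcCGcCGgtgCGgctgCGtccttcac
TNFRSF1A (chr12:6342077-6342326, minus strand): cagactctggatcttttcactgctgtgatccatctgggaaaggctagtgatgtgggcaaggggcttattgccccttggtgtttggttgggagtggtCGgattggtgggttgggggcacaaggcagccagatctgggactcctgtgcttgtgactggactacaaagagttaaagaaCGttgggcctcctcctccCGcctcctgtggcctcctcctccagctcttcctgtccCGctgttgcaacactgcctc
GC boxes, written GGGCGG on either strand, were found in 32 of the 41 windows (78.0%) and in 58.3% of all windows.

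The 5 subunit genes differed from each other in where the peaks lay. RELA, the subunit with a transactivation domain that forms the classical dimer with p50 (chr11:65653601-65663857), had 8 peaks and a cover of 55.5%, above that of 94.0% of coding genes. Its log2 ratios ran from 2.46 to 3.72, with the lowest next to the start and the highest 8.27 kb into the gene. NFKB1, which encodes p105 and its product p50, is 115.9 kb long and had 7 peaks with a cover of 4.77%. Those of log2 ratio 2.11 and 3.21 lay at its start, then 75.4 kb carried none, and the other 5 lay in the last part of the gene from 77.4 kb on. The strongest of these, 500 bp wide at 90.9 kb, had a ratio of 5.49.

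RELB, the partner of p52 in the non-canonical pathway, had 8 peaks with ratios from 1.80 to 4.10 and a cover of 10.9%. The weakest, at 1.80, lay across the lower end of its span, and the last pair lay inside the neighbouring gene CLASRP. NFKB2, which encodes p100 and p52, had a single peak of 2.35 over its start, a cover of 11.2%, and none along the rest of its 8.42 kb. REL, the lymphoid-associated subunit, had a peak of 2.90 just before its start and another of 2.86 beyond its 3′ end, 54.1 kb from the start, so its span had a cover of only 0.0939%. Both peaks of REL lay in the flanks, and it was the only one of the 44 genes with no peak midpoint inside the span.

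The 5 inhibitor genes had 17 peaks in all, and the 4 with a listed start each had one there. NFKBIA (IkB alpha, the fast feedback inhibitor, chr14:35401513-35404749) is 3.24 kb long, and a peak of 1.8 kb with a log2 ratio of 2.31 covered its start and the first part of the gene, followed by one of 3.26 at 2.04 kb. Together they covered 59.3% of the span, above 93.9% of coding genes under 10 kb, and another peak of 3.19 lay past the 3′ end. NFKBIB (IkB beta) had peaks of 3.93, 2.22 and 3.22 and a cover of 17.97%. The first of these lies inside SIRT2, whose start is 48 bp from that of NFKBIB on the opposite strand. NFKBIE (IkB epsilon) had 2 peaks, of 2.35 and 2.56, close to the lower and the upper end of its span, and the first lies inside SLC35B2.

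The nuclear, atypical members of the family had peaks away from their ends too. NFKBIZ (IkB zeta) had peaks of 2.40 at its upstream start and 2.19 at its inner start, 21.4 kb into the gene, then a run of 4 between 25.5 and 29.2 kb with ratios of 2.30 to 3.59. Its cover was 16.3%. BCL3, an activating partner of p50 and p52 homodimers, had a peak of 2.2 at its listed start and a stronger one of 4.28 before the span, with a cover of 7.47%.

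All but 1 of the 11 genes of the kinase group had a peak, and 5 of them had 10 or more. Within the IkB kinase complex, IKBKB, the catalytic subunit of the canonical pathway, had 13 peaks, with log2 ratios from 2.82 to 5.60 and a cover of 19.7%. CHUK (IKK alpha), needed for the non-canonical pathway, had 11 peaks and a cover of 24.3%, and its ratios stayed between 2.25 and 3.28. The ranges overlapped, but the median ratio was 3.69 for IKBKB and 2.80 for CHUK. IKBKG (NEMO), the ubiquitin-binding scaffold, had 6 peaks and a cover of 19.4%. Its ratios ran from 3.10 to 5.65. RefSeq lists a pseudogene copy, IKBKGP1, on chromosome X, and the placing of reads that match both copies is unknown, so its values are uncertain.

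The kinases related to IKK differed in cover. TBK1, which links innate sensing and TNF signalling to interferon, had 18 peaks over 49.99 kb, from 2.21 to 5.49, and a cover of 26.8%. Its paralog IKBKE had a peak of 2.25 at the start and one of 3.31 at 8.48 kb, with a cover of 4.83%. The upstream kinases showed a similar contrast. MAP3K14 (NIK, the kinase of the non-canonical pathway) had 17 peaks and a cover of 47.8%, with the widest, 6.9 kb, centred 36.4 kb into the gene and ratios from 2.31 to 3.64. MAP3K7 (TAK1), although longer at 73.5 kb, had 3 peaks of 2.65 to 3.13 between 27.0 and 39.7 kb, a cover of 2.73% and none within 1 kb of its start.

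The receptor-proximal kinases also ranged widely. RIPK1, the kinase and scaffold of the TNF receptor complex, had 15 peaks spread from its start to 49.5 kb and a cover of 40.8%. Its ratios ran from 1.73 to 3.80. RIPK2, the kinase downstream of the NOD receptors, had a single peak of 2.94 near the lower end of its span. IRAK1 is 9.4 kb long and had 7 peaks, among them one of 2.72 over its start and those of 5.57 and 5.65 past its 3′ end, with a cover of 25.9%. IRAK4, the kinase that activates IRAK1, had no peak within 5 kb and 1 within 10 kb.

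The receptor genes stood apart from each other. TNFRSF1A, the broadly expressed receptor with a death domain (chr12:6328771-6342076), had 9 peaks and a cover of 50.2% over 13.3 kb. Inside the gene its log2 ratios were low, from 1.99 at the start to 2.58, and all of the higher ones, 2.91, 4.82 and 2.84, had their midpoints beyond the 3′ end. The last pair of these lay inside the neighbouring gene PLEKHG6. TNFRSF1B, the receptor found mainly on immune and endothelial cells, had a single peak of 4.46 in the middle of its 42.2 kb, a cover of 1.41%, and none at its start.

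**Figure D3:**
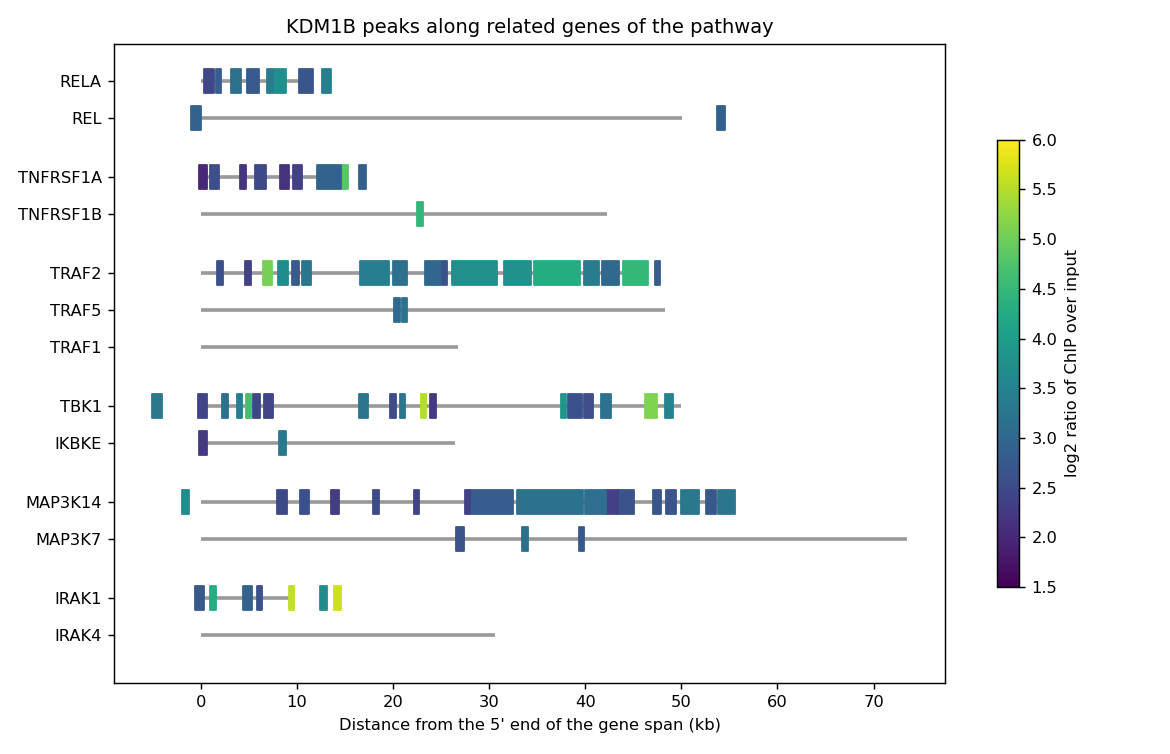
KDM1B peaks (boxes, to scale) along related genes, drawn from the 5′ end of each span in kb, with peaks counted within 5 kb of the span. The colour gives the log2 ratio of ChIP over input and the grey line is the gene; RELA, TNFRSF1A, TRAF2, TBK1, MAP3K14 and IRAK1 carry many boxes, while REL, TNFRSF1B, TRAF5, IKBKE and MAP3K7 carry 3 or fewer and TRAF1 and IRAK4 none.

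The TRAF adaptors ran from one of the most covered of the 47 genes to one with no peak. TRAF2, the ring-finger adaptor that binds TRADD and the BIRC ligases (chr9:136881958-136926607), had 17 peaks and a cover of 62.9%, above that of 95.5% of coding genes. Its ratios ran from 2.36 at the listed start to 5.07, and from 18.1 kb on its peaks were up to 4.84 kb wide. TRAF3, which restrains the non-canonical pathway by turning over MAP3K14, had 15 peaks, but 86.5 kb of its 134.1 kb carried none. Only 3 of its peaks lay before that gap, while 12 lay from 93.96 kb on, with ratios up to 5.57.

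The other TRAF genes had few or no peaks. TRAF4 had 3, of which one with a ratio of 2.40 was over its start, and a cover of 19.6%. TRAF5 had a pair, 3.04 and 3.21, at 20.4 and 21.2 kb into the gene, the first within 1 kb of an inner listed start, and none at its upstream start. TRAF6, the ubiquitin ligase of the Toll and interleukin-1 receptor branch, had a peak of 2.48 over its start, which lies 81 bp from that of RAG1, one inside the gene and one just past its 3′ end. TRAF1, itself a target of NF-kB, had none within 5 or 10 kb.

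Among the death-domain adaptors, TRADD had 7 peaks, but only 2 of them, 1.84 and 3.26, lay in its 5.73 kb span, and 4 lay inside the neighbouring genes B3GNT9, FBXL8 and HSF4. FADD, the adaptor that recruits caspase-8, had a single peak of 2.35 at its 3′ end and a cover of 19.4%. MYD88, the adaptor of most Toll-like receptors, had one of 2.58 at 0.745 kb from its start and a cover of 13.7%. The TAK1-binding proteins had little. TAB1 had 3 peaks of 3.21 to 4.07 in the later part of the gene and TAB2, at 193.7 kb the longest of all 47 genes, had 3, of 2.34 to 5.65, with a cover of 1.21%. TAB3, the X-linked paralog of TAB2, had none within 5 or 10 kb.

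The ubiquitin enzymes and their partners had the highest median cover of the 7 roles when all peaks were counted, 37.4% over 10 genes. All 10 had a peak within 1 kb of a gene end, against 41.9% of all coding genes. So did all 5 subunit genes and 4 of the 5 inhibitor genes. The 3 subunits of LUBAC, the complex that builds linear ubiquitin chains on RIPK1 and IKBKG, were among the 7 genes covered by 50% or more. RNF31 (HOIP, chr14:24146875-24160655), the catalytic subunit, had 9 peaks and a cover of 77.4%, above that of 97.9% of coding genes and of 97.2% of those between 10 and 30 kb. A listed start of RNF31 lies 265 bp from one of PSME2 on the opposite strand, and 1 of the 9 peaks lay inside IRF9. RBCK1 (HOIL-1, chr20:408299-432139) had 11 peaks and a cover of 61.8%. SHARPIN, an accessory subunit, had 8 peaks and a cover of 53.0%, although 3 of them lay in the neighbouring genes CYC1, MAF1 and WDR97.

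The ratios along LUBAC genes were not alike. All 9 peaks of RNF31 lay between 2.13 and 2.59 and all 8 of SHARPIN between 2.03 and 2.90, so every one was below the median of the list, 2.99. With only the peaks at or above the median ratio, the cover of both genes was 0. RBCK1 had ratios from 2.55 to 3.79 and kept a cover of 40.4% among those peaks. TNFRSF1A also had a cover of 0 there, and TRAF2 kept 57.1%, RELA 28.2% and NFKBIA 15.4%. A further 10 genes, NFKB2, REL, NFKBIE, BCL3, RIPK2, FADD, MYD88, TRAF4, BIRC3 and CYLD, also had a cover of 0 there. The median cover of the ubiquitin role was then 6.21%, below the 11.9% of the TNF-induced genes, the 8.24% of the kinases and the 8.02% of the inhibitors. Among genes with many peaks, cover was lower for MAP3K14 with 20.6% left, TBK1 with 14.7%, TNIP1 with 11.6%, CHUK with 7.61% and BIRC2 with 5.35%.

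**Figure D4:**
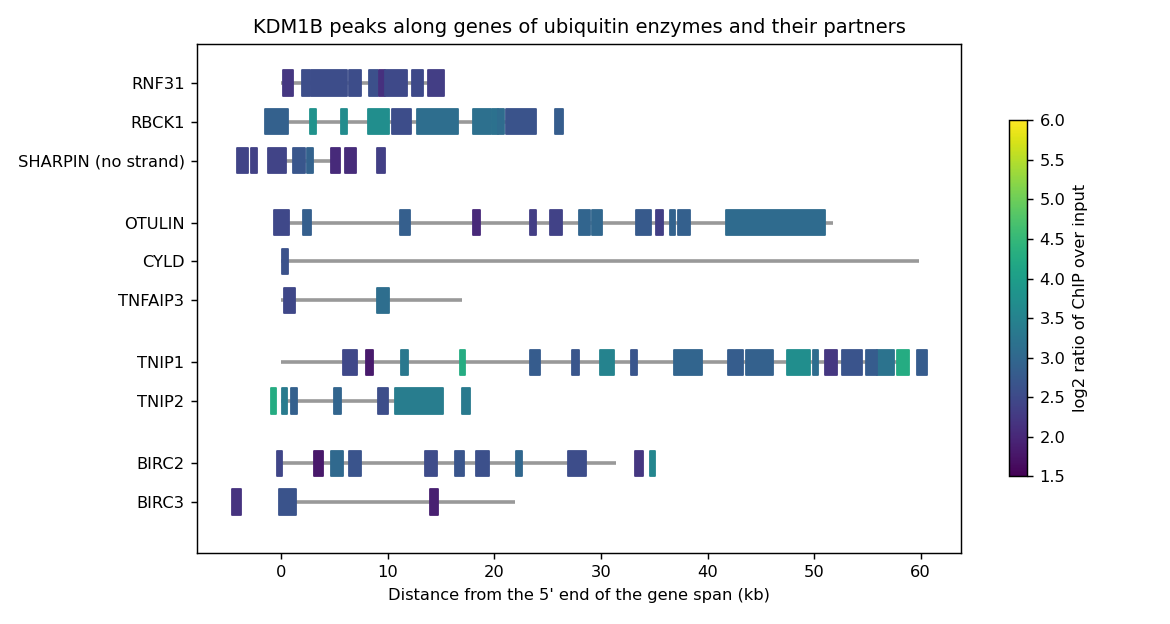
KDM1B peaks (boxes, to scale) along genes of ubiquitin enzymes and their partners, from the 5′ end of each span in kb, coloured by the log2 ratio of ChIP over input. SHARPIN has no strand here and is drawn from its lower coordinate; boxes nearly fill RNF31 at low ratios, and CYLD carries 1 box over its start and none along the rest of the gene.

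The deubiquitinases and editors that oppose these chains ranged from covered to bare. OTULIN, which cleaves linear chains, had 13 peaks and a cover of 37.9%, with ratios of 2.01 to 3.05. Its widest peak, 9.23 kb, lies where ANKH overlaps it, and without that peak its cover was 20.1%. CYLD, which removes several kinds of chain, had a single peak of 2.64 at its start and a cover of 0.951%. TNFAIP3 (A20), the feedback editor of ubiquitin chains, had a peak of 2.45 over the tandem kappaB matches shown above and one of 3.11 at 9.55 kb, with a cover of 13.0%.

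The A20-binding proteins and the BIRC ligases complete this role. TNIP1 had 19 peaks, more than any other of the 47 genes, from 1.80 to 4.28, with a cover of 36.8%. The one over the kappaB match shown above had a ratio of 2.47. TNIP2 had 7 peaks and a cover of 45.7%, and its widest peak, 4.54 kb with a ratio of 3.40, ran over its 3′ end. BIRC2 (cIAP1) and BIRC3 (cIAP2) are neighbours on chromosome 11 and ligate ubiquitin to RIPK1. BIRC2 had 11 peaks of 1.79 to 3.57 and a cover of 27.4%, while BIRC3, the one that NF-kB induces, had 3 of 1.90 to 2.66 and a cover of 9.57%, the widest of them over the start shown above.

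Of the 2 TNF-induced genes, TNFAIP2 had 5 peaks and a cover of 32.4%. The lowest ratio among all 293 peaks, 1.68, lay at its listed start. Another peak, of 4.21, lay at -0.678 kb relative to that start, 1.31 kb into the span. One of 4.72 lay 10.8 kb into the span. TNFAIP8 had 3 peaks over 130.9 kb, 2.52 over its start, 4.21 and 5.65, and a cover of 1.18%.

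By role, the median log2 ratio was highest over the 8 peaks of the TNF-induced genes, at 3.65. These peaks came from only 2 genes and ran from 1.68 to 5.65. The median was 3.10 over the 93 peaks of the kinase group and 3.02 over the 55 of the adaptors. It was 2.84 over the 26 peaks of the subunits, 2.70 over the 84 of the ubiquitin role, 2.58 over the 17 of the inhibitors and 2.53 over the 10 of the receptors. The strongest peaks of the pathway were mostly narrow. A log2 ratio of 5 or more was found in 11 of the 293 peaks (3.75%), against 3.61% of the whole list, and the highest value, 5.65, was shared by peaks at IKBKG, IRAK1, TAB2 and TNFAIP8. Linear ratios in the list were often whole multiples of 2.64 (to within 1e-06), and 8 of these 11 peaks, 0.5 to 0.696 kb wide, were among them. Such whole multiples made up 30 of the 293 peaks (10.2%) and 12.4% of the list. Among the TNF-induced genes they were 2 of the peaks at TNFAIP2 and 2 at TNFAIP8. Single values recurred at different genes, such as 4.28 at BCL3, IKBKB, IRAK1, TNIP1 and TNIP2. The read counts behind the ratios are unknown, so no interval can be given for a ratio.

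Other genes of the pathway, in lists set by name with earlier results of these data known, were described in the same way. The lists ranged widely. TNF ligands had a peak in the gene or within 5 kb in 4 of 18, namely TNFSF13, TNFSF12, TNFSF8 and TNFSF4, with a cover of 23.8, 6.62, 4.72 and 0.525%, and none lay at the start of the 13 with a listed one. Target genes of NF-kB had one in 9 of 22, led by the stress gene GADD45B with a cover of 89.2%, the protease gene PLAU with 50.3% and the survival gene BCL2L1 with 49.4%. The list of the Toll and interleukin-1 receptor arm holds receptors, adaptors, IRAK kinases, PELI ligases and regulators, and had a peak in 13 of 22 genes. It was led by TOLLIP (20.2%), IRAK2 (13.99%) and PELI3 (9.51%), none of which encodes a receptor. Other TNF receptors had one in 20 of 27, led by TNFRSF12A, the receptor of TWEAK, with 85.6%, then TNFRSF10D (37.2%) and RELT (37.0%).

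The remaining lists had a peak at larger shares of their genes. The death and survival branch had a peak in 10 of 10 genes, led by DIABLO, which blocks the IAP proteins, with a cover of 80.2%, the necroptosis effector MLKL with 55.15% and the caspase-8 regulator CFLAR with 19.8%. Ubiquitin conjugation and editing genes had one in 14 of 15, led by SPATA2, the partner of CYLD, with 67.8%, then UBB (56.6%), and TAX1BP1 had none. Other signalling partners had one in 20 of 26, led by TNFAIP1 (65.6%), TRAF7 (55.85%) and NKIRAS2 (40.5%). The median cover was 12.8% in the death and survival list, 7.67% in the ubiquitin list and 2.35% among other partners, and 0 for ligands and targets. The median gene length was 11.99 kb in the ligand list and 7.34 kb in the target list, against 30.6 kb for the 47, and differences between lists were not tested.

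**Figure D5:**
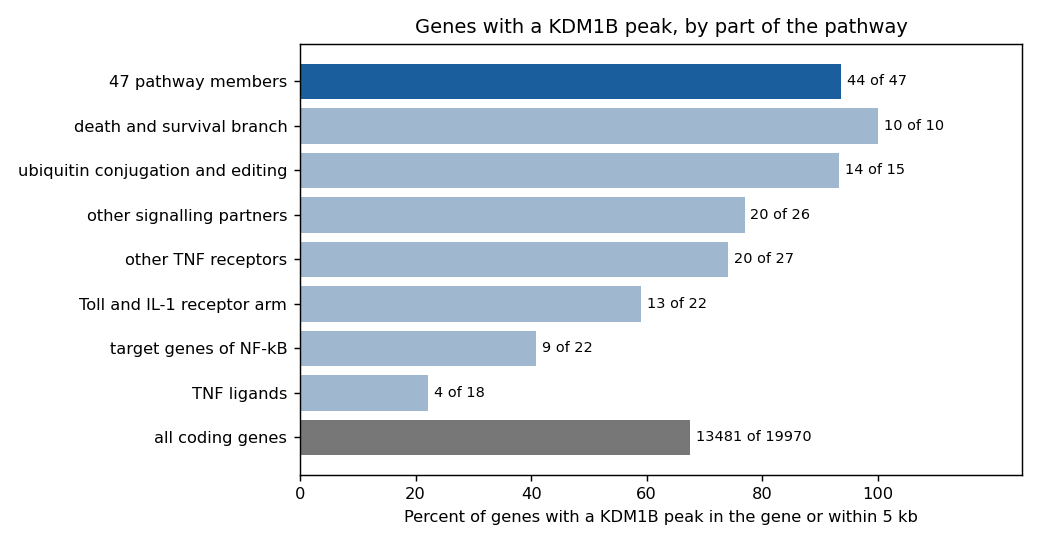
Percent of genes with a KDM1B peak in the gene or within 5 kb, for the 47 genes, 7 other lists of the pathway and all coding genes, with the counts beside the bars. The 47 genes reach 93.6%, the lists run from 100% in the death and survival branch to 22.2% for TNF ligands, and all coding genes stand at 67.5%.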

How the data were processed

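Formaldehyde-fixed, sonicated chromatin was precipitated with anti-FLAG antibody and compared with input, per the labels' protocols. The submitters' processing notes name hg38, Bowtie2 2.2.9 and Trim Galore 0.4.5. Caller and thresholds: not given in the sources used here. For each peak the deposited list has 1 log2 ratio (ChIP over input), with no counts, p-values or summits. That it is a log2 ratio was read from the values, of which 9719 (12.4%) are whole multiples of 2.64 in linear form.

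From it, midpoints and cover were computed in Python 3.11.15 (numpy 2.4.6, pandas 2.3.3). Gene spans and promoter windows came from RefSeq (GRCh38.p14). Strand and starts were listed for 41 of the 47 genes, not for RELB, NFKBIE, IKBKB, RIPK2, TRADD and SHARPIN. Exons were not used. Coordinates are as deposited, and the base at which they begin counting is unknown. Placing was checked on simulated peaks.

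The genes and lists were chosen with earlier results of these data known. Every one of the 47 is named, with up to 3 genes of highest cover in each other list (some results are not reported here), TNFSF4 and TAX1BP1 being added after their values were seen. No tests were made. Alternatives covered peak strength, width, joining, whole multiples, flanks and distances.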

Additional observations from a re-analysis of the deposited data

How the results depend on the processing

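No paired analysis was possible because each group held 1 library. Genes with a peak in or near the span stayed between 31 and 45 of 47 under all alternatives run. The share of coding genes ran from 36.1% with only peaks of 1 kb or wider to 71.3% with a flank of 10 kb. For the stronger peaks, at or above the median ratio, the count was 33 of 47 against 55.7%. With only peaks at or above the median log2 ratio, the 47 genes held 132 peaks, with a median cover of 2.68%, 10 genes with an end peak, 7 with a start-site peak, 1 covered by 50% or more and 4 with 10 or more peaks. Over all coding genes the median cover was then 0, and 16.5% had an end peak, 11.3% a start-site peak and 2.36% were covered by 50% or more, so the excess of covered genes was lost. With only peaks of 1 kb or wider the counts were 109 peaks, a median cover of 6.15%, 21 genes with an end peak, 13 with a start-site peak, 2 covered by 50% or more and 2 with 10 or more peaks. The median cover over all coding genes was then 0. Their shares were 17.1% for end peaks, 15.5% for start-site peaks and 4.51% for 50% cover, and the excess of covered genes was again lost. Joining peaks within 1 kb left 181 peaks and 4 genes with 10 or more. The median cover was then 18%, against 1.54% over all coding genes. The share of coding genes with 10 or more peaks was not computed under the alternatives. The median cover was 13.7% against 1.05% without whole multiples of the step, and 12.1% against 2.78% over spans with 5 kb on each side. It was 14.9% when peaks inside other coding genes were left out, an alternative chosen after seeing the data. No value over all coding genes is given for that alternative. RNF31 had the highest cover except with the stronger peaks, with wide peaks only and with flanks added, where TRAF2 stood at 57.1, 52.8 and 55.8% (RBCK1 also reached 52.8% with wide peaks). Depth is unknown, and a gene without a listed peak may fall under the detection of these libraries.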
